A study of Mus musculus with 4 samples.

Results

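Spermatogonia are the mitotic germ cells from which spermatocytes arise, and 10 genes that regulate their self-renewal, their differentiation or their entry into meiosis were examined in pachytene spermatocytes. They were chosen by symbol (Zbtb16, Gfra1, Kit, Stra8, Dmrt1, Id4, Sall4, Sohlh1, Sohlh2 and Etv5) out of 49943 annotated mouse genes, and all 10 were in the annotation, all on autosomes. For each gene, the ATAC-seq peaks inside it or within 1 kb of either end were collected. ATAC-seq marks accessible DNA by the cuts of a transposase. The BMH-21 group was exposed for 12 h to BMH-21, which inhibits RNA polymerase I, at 2.5 µM, and the mock group to DMSO, the vehicle. Both groups were pachytene spermatocytes isolated from mouse testis, with 2 libraries each. The submitters call the libraries biological replicates, but the sources used here do not give strain, age, isolation method or whether replicates came from separate animals, so the spread between libraries may be technical.

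The study asks how blocking RNA polymerase I, which makes pre-rRNA, alters accessibility of the genome. The BMH-21 libraries had 51234 and 55459 peaks and the mock libraries 109230 and 117905. Read totals were not given. The genome-wide background that the peak caller used, which scales with the reads it was given, was recovered as 4.46 and 4.11 fragments in BMH-21 libraries and 4.54 and 4.31 fragments in mock libraries. Of 10 genes fixed as markers of pachytene spermatocytes, 9 had a gene-end peak in all 4 libraries, among them Sycp1, Sycp2 and Sycp3 of the synaptonemal complex. The exception, Ccna1, had a peak inside the gene in each library. Gene-end peaks were common: of 15040 protein-coding genes that carried them in each mock list, 84.3% also did so in each BMH-21 list. For the markers this was 9 of 9, a small count not tested against that share, so it does not establish cell identity.

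In the testis, GDNF from Sertoli and other somatic cells binds GFRA1 on undifferentiated spermatogonia and, through its partner receptor RET, sustains self-renewal, in part by inducing Etv5. Retinoic acid then drives differentiation, marked by the receptor KIT, and later induces Stra8, which starts meiosis. In pachytene spermatocytes this programme is past. Accessibility of a gene is not its transcription, and RNA was not measured. With many cells in a library, fewer cells with an open site and less open sites in each cell cannot be told apart.

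Most of the 10 genes had an accessible end in mock cells, and the treated cells differed from gene to gene. A peak lay within 1 kb of a gene end in 6 and 8 of the 10 genes in BMH-21 libraries and in 8 and 9 genes in mock libraries. The groups overlap at 8, and the difference of the means, -1.5 genes, had an exact permutation p of 0.67 (two-sided), where 0.33 is the smallest that 2 against 2 libraries allow. The direction turned with windows of 2.5 kb, where means of 10 genes in BMH-21 and 9.5 genes in mock libraries had such a peak. Both BMH-21 libraries held a gene-end peak in 6 of 10 genes, beside 59.3% of all protein-coding genes, and both mock libraries in 8 of 10, beside 68.7%.

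Of the 8 genes open at an end in both mock libraries, 5 (Zbtb16, Kit, Id4, Sohlh2 and Etv5) were open in all 4 libraries, beside 84.3% of 15040 protein-coding genes. Dmrt1 had no gene-end peak in either BMH-21 library (mock-only), which makes 1 of 8, beside 11.5% mock-only among all protein-coding genes. Gfra1 and Sall4 had one in the second BMH-21 library and not in the first. Sohlh1 had a gene-end peak in both BMH-21 libraries and in the second mock library, but at opposite ends. Stra8 had none within 1 kb of its annotated ends in any library, so that none of 1 gene without a mock peak was BMH-21-only, beside 2.86%.

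**Figure D1:**
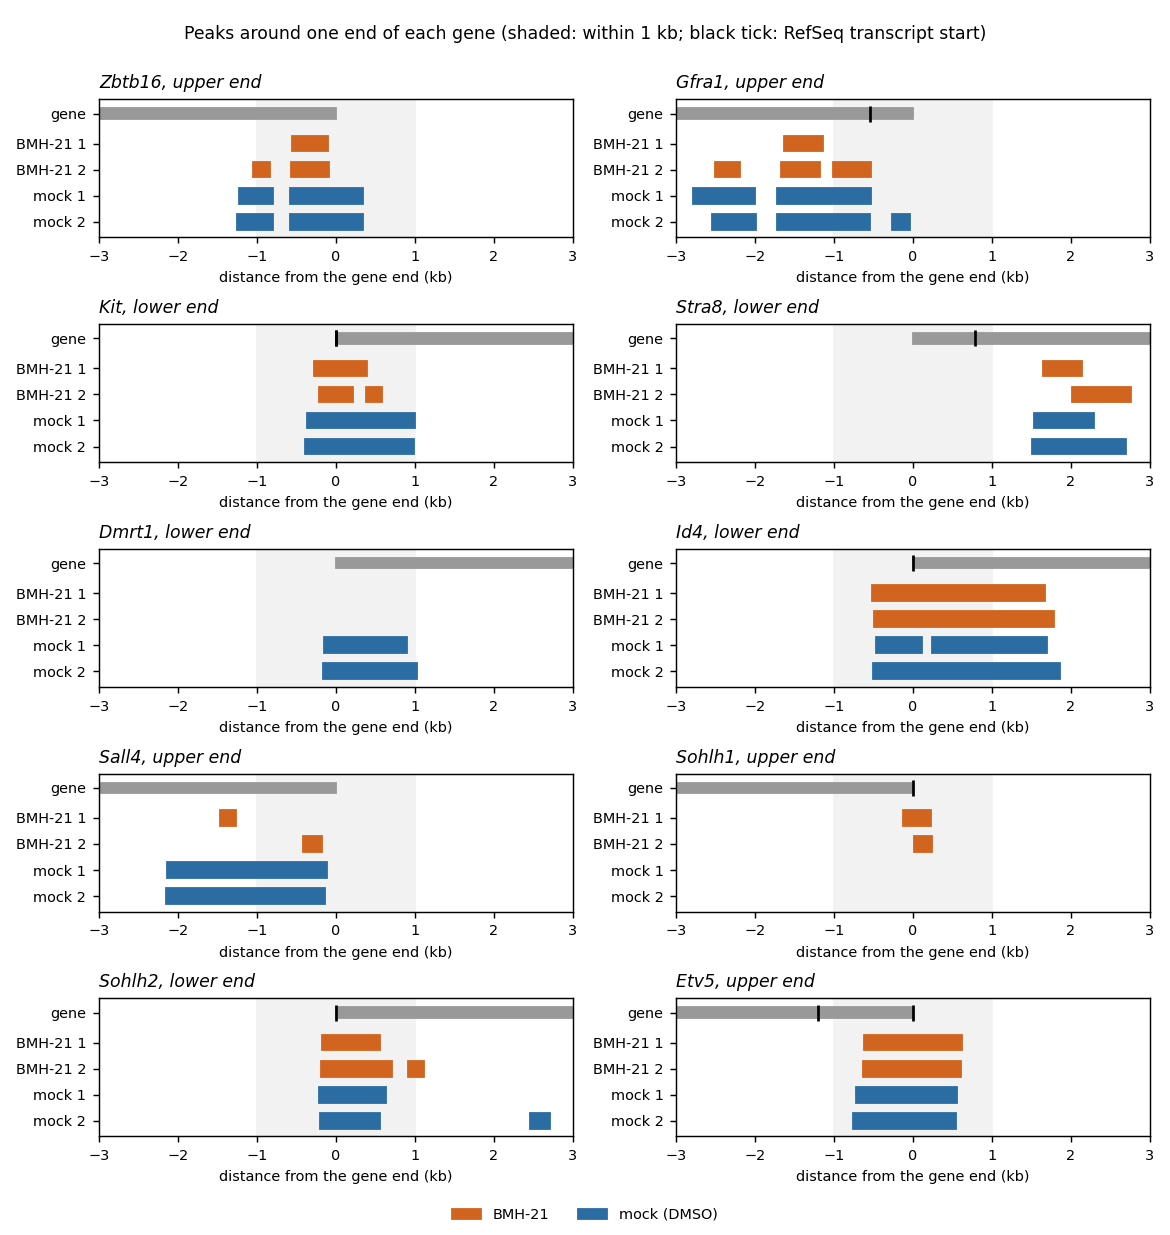
Peaks around the end of each gene that held most peaks (for Stra8, its lower end), drawn to scale as distance in kb from that gene end, with the gene in grey, BMH-21 libraries in orange above mock libraries in blue, and RefSeq transcript starts as black ticks where the promoter table holds them. Dmrt1 has peaks in the 2 mock libraries only, Sohlh1 at this end in the 2 BMH-21 libraries only, and the mock peaks of Sall4, 2028 and 2003 bp wide, face treated peaks of 200 and 246 bp.

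Counted over the ends and the interiors, the 10 genes held 17 and 22 peaks in BMH-21 libraries and 36 and 42 peaks in mock libraries. Every treated count was below every mock count. The means were 19.5 ± 3.54 in BMH-21 and 39.0 ± 4.24 in mock libraries (SD, n = 2 each), a ratio of 0.5 (exact permutation p = 0.33, the smallest possible). Over all autosomal protein-coding genes the same ratio was 0.421. This direction turned when list lengths were made equal. With each list limited to its strongest 51234 peaks, the 10 genes held means of 19.5 peaks in BMH-21 and 15 in mock libraries. The ratio over all autosomal genes was not computed for equal lists. Whether this change of direction is particular to the 10 genes is therefore not known. The full lists also differ in make-up. Autosomes held 34899 of 51234 and 38099 of 55459 peaks in BMH-21 libraries, and 90181 of 109230 and 97291 of 117905 in mock libraries.

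Peak numbers were also counted by position, without a test of ends against interiors. Peaks away from the ends numbered 11 in each BMH-21 library, against 26 and 31 in the mock libraries (exact permutation p = 0.33, the smallest possible). At the ends there were 6 and 11 peaks in BMH-21 libraries and 10 and 11 peaks in mock libraries, and these groups overlap (exact permutation p = 1). Bases under peaks came to 10533 and 11576 in BMH-21 libraries and 21790 and 24208 in mock libraries, a ratio of the means of 0.481 (exact permutation p = 0.33, the smallest possible), beside 0.487 over all autosomal protein-coding genes. In lists of equal length the means were 11054.5 bases in BMH-21 and 13615 bases in mock libraries, a difference of -2560.5 in place of -11944.5. The strongest gene-end peaks had median widths of 700.5 and 456.5 bp in BMH-21 libraries and 1234 and 1187 bp in mock libraries, lower in both treated libraries. These medians cover 6 and 8 genes in BMH-21 and 8 and 9 genes in mock libraries, so they are not over the same genes. Over the whole lists the median width was 396 and 365 bp in BMH-21 libraries and 358 and 351 bp in mock libraries.

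**Figure D2:**
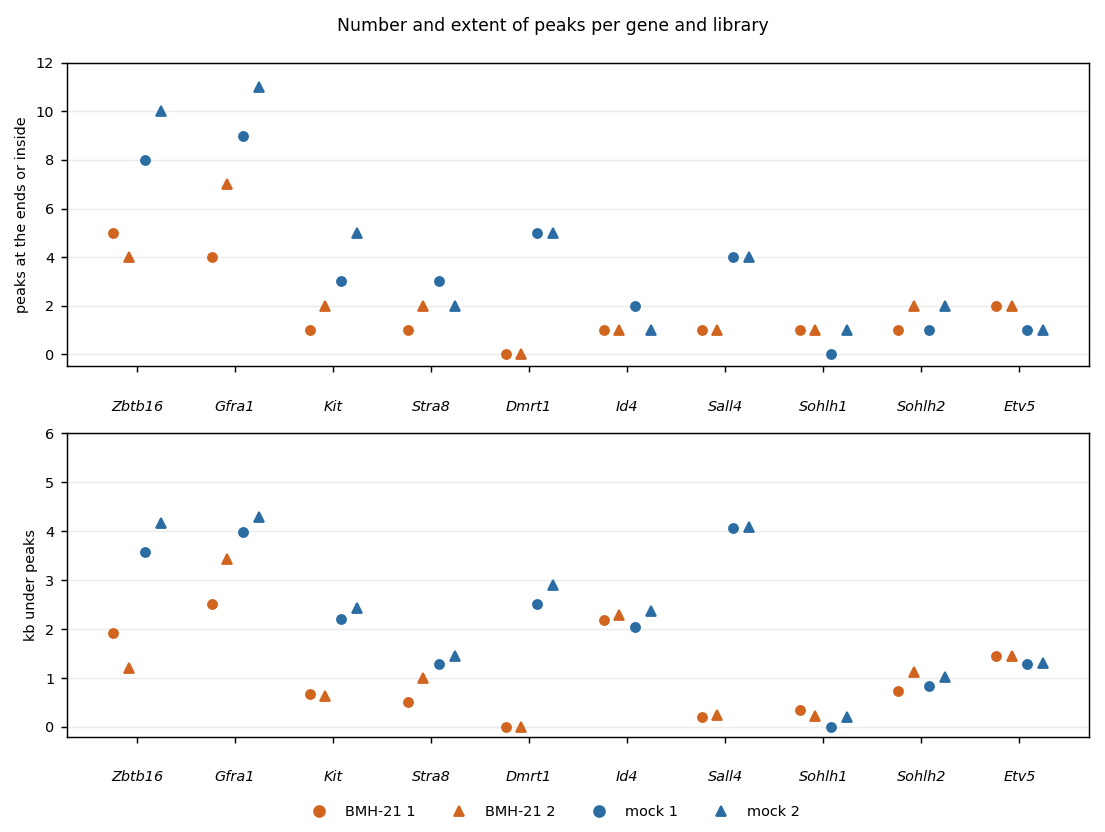
Number of peaks (upper panel) and kilobases under peaks (lower panel) at each gene, including 1 kb beyond either end, with one point per library, BMH-21 in orange left of mock in blue, circles for replicate 1 and triangles for replicate 2. Both panels show Zbtb16, Gfra1, Kit, Dmrt1 and Sall4 lower in both BMH-21 libraries than in both mock libraries, and Etv5 higher.

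By gene, peaks were fewer in both BMH-21 than in both mock libraries for 5 of 10 genes (Zbtb16, Gfra1, Kit, Dmrt1 and Sall4), beside 56.3% of autosomal protein-coding genes with a peak. They were more numerous for 1 gene, Etv5, beside 2.36%. Fewer bases lay under peaks for 6 genes, these 5 and Stra8, beside 74% of autosomal protein-coding genes with a peak, and more for Sohlh1 and Etv5, beside 8.09%. No gene can pass a threshold of 0.05 with 2 libraries against 2.

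Merging the 4 lists gave 56 regions at the 10 genes. Of 29 held by both mock libraries, 17 were in neither BMH-21 library, or 58.6%, beside 59.2% of autosomal regions at or inside protein-coding genes. At gene ends 1 of 9 was mock-only (11.1%), beside 26.5%, and inside the genes 16 of 20 (80.0%), beside 75.6%. Of 14 regions held by both BMH-21 libraries, 4 were in neither mock library, beside 12.9%. These were 1 of 8 at gene ends, beside 4.14%, and 3 of 6 inside, beside 25.8%. The counts are small, and the interiors of Zbtb16 and Gfra1 alone supplied 12 and 13 of the 43 regions away from the ends. In equal lists 4 regions were mock-only and 6 BMH-21-only, for which no share over all regions was computed.

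**Figure D3:**
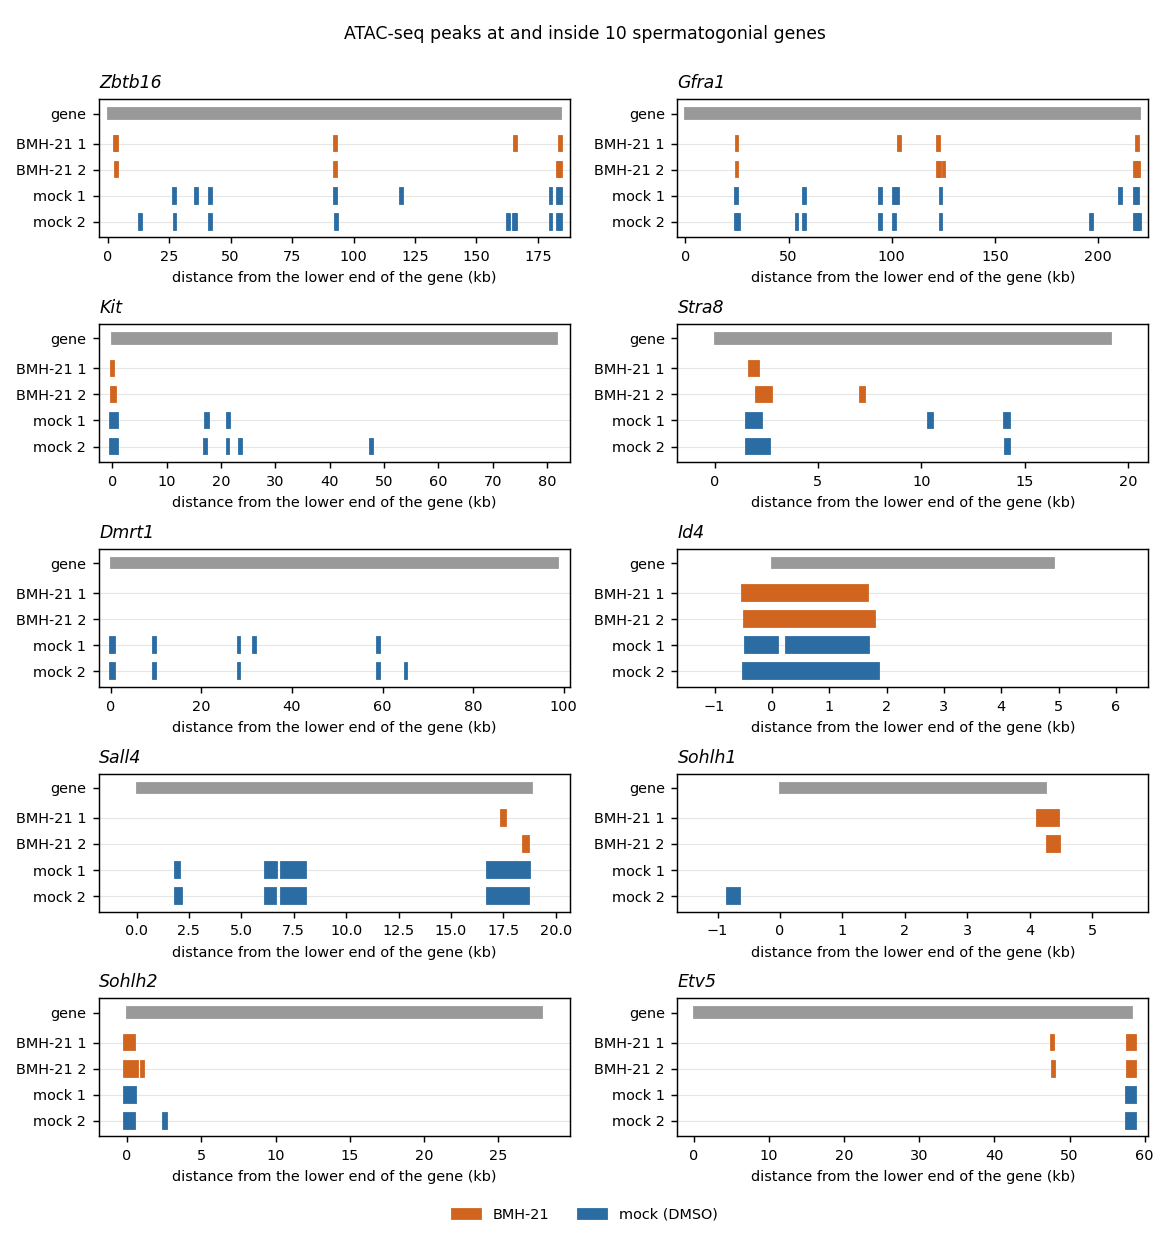
Position of every peak along the 10 genes, in kb from the lower end of each gene, with the gene in grey, BMH-21 libraries in orange above mock libraries in blue (peaks narrower than a visible line are drawn at a minimum width). Peaks inside Dmrt1, Kit and Sall4 that both mock libraries share have no treated counterpart, whereas 1 region inside Gfra1 and 1 inside Zbtb16 are held by all 4 libraries.

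Among genes of stem cell maintenance, Gfra1 encodes the GDNF co-receptor (chromosome 19, 58235581 to 58455946, mm10). It held 4 and 7 peaks in BMH-21 libraries and 9 and 11 peaks in mock libraries. The transcript start that RefSeq gives lies at 58455398 on the minus strand, and in both mock libraries a peak of 1184 and 1185 bp ended beside it, at 58455408 and 58455406. In BMH-21 libraries shorter peaks lay in the same stretch: 58454311 to 58454800 in the first and 58454267 to 58454769 and 58454930 to 58455414 in the second. So a peak lay within 1 kb of the transcript start in all 4 libraries, but in the first BMH-21 library it did not reach the start. The count within 1 kb of the annotated gene end missed that library. The peaks at this end in the second BMH-21 library and both mock libraries also lie within 1 kb of Gm41876, a long noncoding RNA gene next to Gfra1.

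Inside Gfra1, a region from 58259911 to 58261362 was held by all 4 libraries. Peaks covered 1247 and 1371 bp of it in BMH-21 libraries and 395 and 901 bp in mock libraries. The covered length was larger in both treated libraries. The authors' fold enrichment, the pileup of fragments at the summit over the local background of the same library, was 8.61 and 9.0 in BMH-21 libraries and 5.78 and 5.27 in mock libraries. These folds are not normalised between libraries and describe each peak within its own list. A further region inside the gene, 58358118 to 58358760, was BMH-21-only, with folds of 5.64 and 6.69, and 4 regions were mock-only, with folds of 3.20 to 4.38.

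Etv5 encodes an ETS transcription factor that GDNF induces in spermatogonia and that is also needed in Sertoli cells (chromosome 16, 22381313 to 22439570). Its upper end, where RefSeq places a transcript start on the minus strand, carried 1 peak in each library. The peak was 1244 and 1240 bp wide in BMH-21 libraries and 1284 and 1300 bp in mock libraries. Relative to this start, the summit lay at -143 and -170 bp in BMH-21 libraries, upstream of it, and at 174 and 185 bp in mock libraries, downstream of it. The fold was 11.3 and 11.2 in BMH-21 libraries, where it ranked 1116 of 51234 and 1703 of 55459, and 8.76 and 8.22 in mock libraries, where it ranked 7336 of 109230 and 10654 of 117905. It had the highest fold of all member peaks in both treated lists. A second, weaker region inside the gene (22428963 to 22429235) was BMH-21-only, with folds of 4.21 and 4.11.

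The Etv5 sequence before this transcript start (chr16:22439571-22439820, minus strand, mm10) is shown because all 250 of its bases lay under the peak in every library. Here and below sequences run 5′ to 3′, end just before the transcript start and come from the RefSeq promoter table of GRCm38.p6. Capitals mark the CCAAT box (CCAAT, either strand), found 3 times here and at least once in 33.8% of 32851 promoters of this length.
Etv5: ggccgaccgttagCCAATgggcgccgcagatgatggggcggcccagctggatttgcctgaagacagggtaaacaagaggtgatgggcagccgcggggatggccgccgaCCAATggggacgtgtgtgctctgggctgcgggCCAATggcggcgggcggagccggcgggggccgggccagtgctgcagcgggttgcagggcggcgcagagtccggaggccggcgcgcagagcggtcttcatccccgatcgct
The sequence held 27 CpG dinucleotides, and 8.56% of promoters held as many or more, beside a median of 6.

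Id4 encodes a helix-loop-helix inhibitor that marks the most stem-like spermatogonia (chromosome 13, 48261116 to 48266028). A wide accessible region covered its start in all 4 libraries. It measured 2193 and 2286 bp in BMH-21 libraries, against a pair of peaks of 575 and 1458 bp in the first mock library and 1 peak of 2372 bp in the second. Bases under peaks overlapped between the groups, at 2193 and 2286 in BMH-21 and 2033 and 2372 in mock libraries (exact permutation p = 1). The sequence before its start was the richest in CpG of the 7 members in the promoter table, with 35 in 250 bases, as many as or more than which 2.97% of promoters held. The long noncoding RNA gene A330033J07Rik has an end inside the same accessible region, so the region cannot be assigned to Id4 alone.

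Zbtb16 encodes PLZF, a zinc finger repressor required for maintenance of the stem cell pool (chromosome 9, 48651797 to 48836225). It held 5 and 4 peaks in BMH-21 libraries and 8 and 10 peaks in mock libraries. At the upper end, the outermost peak was 450 and 481 bp wide in BMH-21 libraries and 935 and 933 bp in mock libraries. The treated peaks lay within the extent of the mock peaks and stopped short of the gene end, at 48836123 and 48836134, while the mock peaks ran past it to 48836572. A second region at this end, 48834971 to 48835425, was held by both mock libraries and the second BMH-21 library. In the outermost region, summits held 26 and 25 fragments over a local background of 4.68 and 5.08 in BMH-21 libraries, and 108 and 96 fragments over 17.1 and 16.6 in mock libraries. These fragment counts were recovered from the deposited fold and p of each peak and are not normalised between libraries.

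Inside Zbtb16, 3 regions were mock-only, with folds of 2.71 to 4.69, and 1 was BMH-21-only (48655199 to 48655603, folds 5.72 and 5.22). A region near the middle of the gene, 48744094 to 48745025, was held by all 4 libraries. Its fold was 9.35 and 5.87 in BMH-21 libraries and 4.33 and 3.01 in mock libraries. Its treated peaks ranked 3448 of 51234 and 16402 of 55459, so the 2 treated libraries differed here, and its mock peaks 53559 of 109230 and 103217 of 117905.

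Sall4 encodes a zinc finger factor that acts with PLZF in spermatogonia (chromosome 2, 168748332 to 168767201). Nearly all of its accessible sequence in mock cells was outside peaks in treated cells. Peaks covered 200 and 246 bp in BMH-21 libraries and 4067 and 4086 bp in mock libraries, a ratio of the means of 0.0547 (exact permutation p = 0.33, the smallest possible). A peak of 2028 and 2003 bp in the mock libraries lay just inside the upper end of the gene record, ending at 168767094 and 168767057, and each treated library held 1 short peak within its extent, at 168765735 to 168765934 in the first and 168766786 to 168767031 in the second. These treated peaks do not overlap each other. The summits held 21 and 22 fragments in BMH-21 libraries and 109 and 103 in mock libraries. The 3 other regions held by both mock libraries, all inside the gene, were mock-only, with folds of 3.61 to 5.18. The long noncoding RNA gene Gm14261 has an end inside the region at the upper end.

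Dmrt1 encodes a DM-domain transcription factor that holds spermatogonia back from meiosis and also maintains Sertoli cell identity (chromosome 19, 25505618 to 25604328). It had no peak in either BMH-21 library and 5 peaks in each mock library. The mock peaks covered 2522 and 2895 bp. At the lower end the mock peak was 1048 and 1187 bp wide with folds of 8.29 and 7.52, and it ranked 9093 of 109230 and 14341 of 117905. All 4 regions that both mock libraries held were mock-only: this one and 3 inside the gene, of which 25514995 to 25515514 had the highest folds, 6.71 and 5.46.

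Of 4 gene-end regions of the 10 genes with a peak among the strongest 15% of both mock lists, the Dmrt1 region was the 1 that was mock-only, beside 4.8% of 6757 such autosomal regions at protein-coding gene ends. Of 3 of the 10 genes with at least 5 peaks in each mock library, Dmrt1 was the 1 without a treated peak, beside 1.49% of 3900 such autosomal genes. Both cut-offs were set after the Dmrt1 values were known, so these shares only place the gene among others. Just beyond the window, 1387 and 1360 bp past the upper end, BMH-21 libraries held peaks of 508 and 544 bp with folds of 7.16 and 7.25, and mock libraries held wider ones, 774 and 762 bp, 1194 and 1221 bp past the end, with folds of 4.51 and 4.93. With a window of 2.5 kb this region counts as a Dmrt1 gene end and no member is mock-only.

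Since Dmrt1 is also a Sertoli cell gene, the other 7 Sertoli markers are given beside it. Of these, 5 and 4 had a gene-end peak in BMH-21 libraries and 4 and 5 in mock libraries. None of the 4 open in both mock libraries was mock-only, beside 11.5% of all protein-coding genes. At and inside the 7 genes together there were 12 and 12 peaks in BMH-21 libraries and 26 and 22 in mock libraries. Rhox5, a homeobox gene on the X chromosome, was BMH-21-only at its ends, with folds of 5.68 and 6.45. It was 1 of 2 of these genes without a mock gene-end peak, beside 2.86% of such protein-coding genes. The mock libraries held 3 and 2 peaks inside Rhox5. Gata4 had no gene-end peak in any library and Fshr had one in the second mock library alone. The part of Sertoli cells in the Dmrt1 result was not tested.

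**Figure D4:**
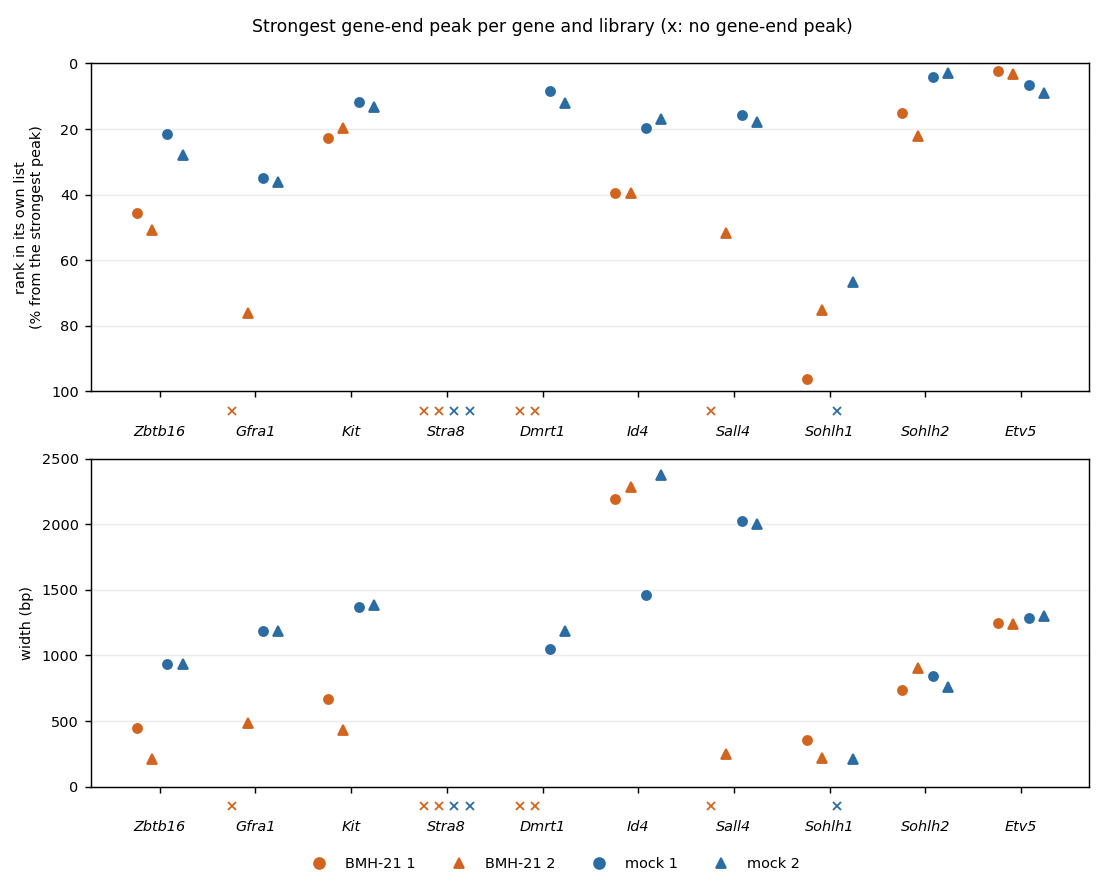
Rank of the strongest gene-end peak of each gene in its own list, as % of the list counted from the strongest peak (upper panel, axis inverted so that stronger peaks stand higher), and its width in bp (lower panel), with one point per library, BMH-21 in orange left of mock in blue, and a cross where a library had no gene-end peak. Etv5 lies within the strongest 2.18 and 3.07% of the BMH-21 lists and the strongest 6.72 and 9.04% of the mock lists. The peaks of Zbtb16, Gfra1, Kit and Sall4 are narrower where present in BMH-21 libraries, and those of Etv5 slightly so. For Zbtb16, the point of the second BMH-21 library (214 bp) is a different peak at that end from the one plotted for the other libraries.

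Among genes of differentiation, Kit encodes the receptor tyrosine kinase of differentiating spermatogonia (chromosome 5, 75574987 to 75656722). Its start was accessible in all 4 libraries, over a shorter stretch in BMH-21 libraries, and its interior had no treated peak. Over the start, the peak was 668 and 428 bp wide in BMH-21 libraries, the second with a separate peak of 200 bp beside it, and 1370 and 1383 bp in mock libraries. Relative to the transcript start, the summit lay at -35 and -40 bp in BMH-21 libraries and at -59 and -144 bp in mock libraries, upstream in all 4. Summit fragments numbered 47 and 45 in BMH-21 libraries and 100 and 108 in mock libraries. The folds were 6.47 and 7.03 in BMH-21 libraries and 7.45 and 7.28 in mock libraries, closer than the fragment numbers, since the local background was 6.42 and 5.54 in BMH-21 libraries and 12.6 and 14.0 in mock libraries. Inside Kit, both regions held by both mock libraries (75591993 to 75592706 and 75596178 to 75596441) were mock-only, with folds of 3.25 to 4.26.

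The sequence before the Kit start (chr5:75574737-75574986, plus strand) is shown because the narrowed treated peaks still covered 250 and 209 of its bases, and the mock peaks all 250. Capitals mark the GC box (GGGCGG, either strand), present once here and in 32.7% of promoters.
Kit: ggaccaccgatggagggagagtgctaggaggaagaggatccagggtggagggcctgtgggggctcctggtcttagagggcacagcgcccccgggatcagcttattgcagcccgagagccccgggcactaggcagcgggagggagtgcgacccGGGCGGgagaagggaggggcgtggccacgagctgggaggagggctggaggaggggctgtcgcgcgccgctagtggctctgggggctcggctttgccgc
It held 17 CpG, and 23.5% of promoters held as many or more.

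Sohlh1 and Sohlh2 encode partner basic helix-loop-helix factors of spermatogonial differentiation, and their starts differed. At the Sohlh2 start (chromosome 3, 55182044 to 55209957), peaks of 733 and 904 bp in BMH-21 libraries and 840 and 760 bp in mock libraries overlapped in width between groups. They were among the strong peaks of each list, ranking 7734 of 51234 and 12227 of 55459 in BMH-21 and 4470 of 109230 and 3539 of 117905 in mock libraries. Folds were 7.52 and 6.66 in BMH-21 libraries and 9.77 and 10.6 in mock libraries. Summit fragments numbered 45 and 40 in BMH-21 libraries and 84 and 96 in mock libraries. Both measures were lower in both treated libraries, but neither is normalised between libraries. Bases under peaks at Sohlh2 were 733 and 1116 in BMH-21 and 840 and 1019 in mock libraries, which overlap (exact permutation p = 1).

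At the Sohlh1 start (chromosome 2, 25842995 to 25847248, minus strand), BMH-21 libraries had weak peaks of 356 and 222 bp and mock libraries had none. Its folds were 2.60 and 3.66, and it ranked 49324 of 51234 and 41658 of 55459, in the weaker part of both treated lists and near the foot of the first. Under the stricter threshold of −log10 q of at least 5, the gene no longer differed between the groups in the number of libraries with a gene-end peak. The second mock library held a peak of 210 bp at the other end of the gene (25842143 to 25842352, fold 3.78). Taking each end on its own, an alternative chosen after seeing the data, 1 of 11 member ends without a mock peak was BMH-21-only, beside 1.66% of protein-coding gene ends, and 1 of 8 with a peak in both mock libraries was mock-only, beside 21.6%. Sohlh1 as a gene was BMH-21-only in lists of equal length, with a 500 bp window and without the second mock library.

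The sequences before the Sohlh1 start (chr2:25847249-25847498, minus strand) and the Sohlh2 start (chr3:55181794-55182043, plus strand) are set side by side because the SOHLH proteins are of the class that binds E-boxes and the Sohlh1 sequence had no mock peak while that of Sohlh2 had peaks in all 4 libraries. Capitals mark the E-box (CANNTG, which reads the same on both strands).
Sohlh1: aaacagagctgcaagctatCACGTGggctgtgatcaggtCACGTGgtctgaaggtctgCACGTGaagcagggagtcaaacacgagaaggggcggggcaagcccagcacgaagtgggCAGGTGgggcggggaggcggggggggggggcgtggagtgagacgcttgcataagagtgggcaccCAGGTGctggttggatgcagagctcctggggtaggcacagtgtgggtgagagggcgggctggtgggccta
Sohlh2: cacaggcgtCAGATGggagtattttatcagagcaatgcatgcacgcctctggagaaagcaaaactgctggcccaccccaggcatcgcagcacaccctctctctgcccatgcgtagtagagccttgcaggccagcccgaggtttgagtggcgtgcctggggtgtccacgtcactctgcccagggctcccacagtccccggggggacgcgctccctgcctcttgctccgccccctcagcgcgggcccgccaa
Sohlh1 held 5 E-boxes and Sohlh2 1, beside a median of 1 and a share of 66.2% of promoters with any. Of those in Sohlh1, 3 had the palindromic form CACGTG, at 231, 211 and 192 bases before the start, a form that 6.02% of promoters hold and that was added to the search after the sequence was seen. Treated peaks covered 225 and 222 of the 250 Sohlh1 bases and mock peaks 0, while for Sohlh2 the covered bases were 170 and 188 in BMH-21 and 210 and 199 in mock libraries.

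Stra8, induced by retinoic acid, is required for entry into meiosis (chromosome 6, 34920163 to 34939344). None of the libraries had a peak over its promoter. The nearest accessible region lay inside the gene, downstream of the RefSeq transcript start at 34920948, and was held by all 4 libraries, at 34921808 to 34922307 and 34922177 to 34922921 in BMH-21 libraries and 34921690 to 34922460 and 34921675 to 34922864 in mock libraries. Its folds were 3.12 and 3.81 in BMH-21 libraries and 4.36 and 4.66 in mock libraries, where it ranked 53142 of 109230 and 51426 of 117905, near the middle of the lists. Farther inside, a region from 34934174 to 34934456 was mock-only, with folds of 5.76 and 5.34. Peaks covered 500 and 997 bp in BMH-21 and 1289 and 1451 bp in mock libraries (exact permutation p = 0.33, the smallest possible).

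The Stra8 sequence (chr6:34920698-34920947, plus strand) is shown because this is the one promoter of the 7 with 0 bases under peaks at its first transcript start in all 4 libraries. Capitals mark the half-site of retinoic acid receptors (AGGTCA, either strand).
Stra8: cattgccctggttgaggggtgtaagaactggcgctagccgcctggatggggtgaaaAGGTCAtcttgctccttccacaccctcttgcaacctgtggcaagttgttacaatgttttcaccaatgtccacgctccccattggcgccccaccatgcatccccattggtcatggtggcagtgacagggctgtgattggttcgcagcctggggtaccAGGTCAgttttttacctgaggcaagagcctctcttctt
It held 2 half-sites, 194 and 38 bases before the start, and 14.0% of promoters held at least 1. It had 5 CpG, fewer than the median of 6, and 4 CCAAT boxes. A match of letters is a description and not evidence of binding.

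Peaks covered part or all of the 250 bases before the first transcript start in all 4 libraries for Id4, Etv5, Kit and Sohlh2, with 35, 27, 17 and 14 CpG. For Gfra1, with 10 CpG, 0 and 16 bases were covered in BMH-21 and 10 and 8 in mock libraries. The second RefSeq start of Etv5, at 22438368, held 18 CpG before it and 0 bases under peaks in all 4 libraries, so CpG number and coverage did not run in the same order throughout. These are 7 genes, and Zbtb16, Dmrt1 and Sall4 were not in the table. With the RefSeq starts in place of gene ends, an alternative chosen after seeing the data, a peak lay within 1 kb in a mean of 6.5 of 7 genes in BMH-21 and 6 of 7 in mock libraries, a difference of 0.5 (exact permutation p = 1). The sign differs from that over all members, but the genes without a listed start were left out here, so the 2 differences cover unlike genes. In the gene-end count, BMH-21 minus mock in the share of libraries with a peak was -1 for Dmrt1, -0.5 for Sall4 and 0 for Zbtb16. Among the genes with a listed start, it was -0.5 for Gfra1, 0.5 for Sohlh1 and 0 for the others.

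Other genes of the same pathways were read from 3 lists. Of 44 genes, 38 were open at an end in both mock lists, 7 of these were mock-only (18.4%) and 30 were open in all 4 libraries. None of 3 genes without a mock peak was BMH-21-only. The mock-only share stands beside 11.5% of all protein-coding genes. In equal lists 2 genes were mock-only in place of 7, without a share over all genes for such lists.

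In the list of undifferentiated spermatogonia and GDNF signalling, 3 of 15 were mock-only. These were the pancreatic homeobox factor gene Pdx1, also a marker of some spermatogonial stem cells (folds 5.57 and 6.09 in mock libraries), Neurog3, a bHLH factor gene of early progenitors (4.24 and 4.41), and Pax7, a marker of rare spermatogonia (4.37 and 3.89). Ret, the signalling partner of GFRA1, was open in all 4 libraries. In the retinoic acid list 1 of 12 was mock-only, Cyp26b1, which encodes an enzyme that degrades retinoic acid (5.18 and 4.62). The partner of STRA8 at the start of meiosis, Meiosin, which the annotation lists as Bhmg1, was open in all 4. In the KIT list 3 of 11 were mock-only, namely Kitl, the ligand of KIT made by Sertoli cells (9.46 and 10.5), and the D-type cyclin genes Ccnd2 (3.25 and 3.21) and Ccnd1 (2.60 and 2.50). These calls concern gene ends alone. Away from the ends, Pax7 held 2 and 3 peaks in BMH-21 libraries, and Cyp26b1 and Ccnd2 held 2 each in the second. Kit itself had a gene-end peak in all 4 libraries, and the difference between Kit and Kitl was not tested.

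Markers of further testis cells gave small counts. Of the Leydig genes 1 of 3 open in both mock libraries was mock-only, Star, and of the macrophage genes 2 of 3, Csf1r and C1qa. These stand beside 11.5% of all protein-coding genes, and counts out of 3 are too small to set apart from it. Gene-end peaks were found for 2 and 2 of 5 Leydig genes in BMH-21 and 3 and 3 in mock libraries, and for 1 and 1 of 5 macrophage genes in BMH-21 and 3 and 4 in mock libraries. The Leydig genes Cyp17a1 and Hsd3b1 and the macrophage gene Adgre1 had none in any library. The part of such cells in the values of the 10 genes was not tested.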

How the data were processed

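ATAC-seq peak lists of 4 libraries were used, 2 per group. Per the labels' protocols, pelleted cells were tagmented. MACS2 2.1.0, Bowtie2, fastp, deepTools and bedtools are listed, per the submitters' processing notes, with both mm39 and mm10. Calling parameters, duplicate removal and read shifting are not given in the sources used here. The deposited fold is a ratio of summit pileup to local background, and the deposited −log10 p and −log10 q and the score (close to 10 times the −log10 q) refer to 1 library. None is normalised between libraries, so the presence, number and extent of peaks were compared. A missing peak lies below the authors' threshold, which is not closed chromatin.

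Coordinates are 1-based and were taken as mm10: 61.0 to 70.7% of 21887 protein-coding genes of GRCm38.p6 had a gene-end peak, against 14.8 to 29.4% after a shift of 50 kb. The RefSeq table gives gene starts and ends without strand or exons; strand came from the promoter table for 7 members. Peaks overlapping by 1 bp were merged into regions. Mock-only features had a peak in each mock library and none in BMH-21 libraries, BMH-21-only the reverse. Rank is by fold within a list. Summit fragments and background were solved from fold and p by the Poisson relation (largest error 0.00056 in −log10 p). Totals were compared by exact permutation over 3 splits; the smallest p is 0.33. Every member is named; genes of other lists are named where mock-only or BMH-21-only, a few others as examples chosen after their values were seen. Members and lists were chosen with earlier results of these data known. The code for the calls was checked on copies of the first mock list with peaks at some gene ends removed. The copies had no spread between replicates, so this check does not measure how reliable calls are in real lists. Python 3.11.15, pandas 2.3.3 and scipy 1.17.1 were used. Alternatives were a stricter threshold, equal list lengths, summit windows, windows of 500 bp and 2.5 kb, 50% coverage, rank by −log10 q, a replicate block and leaving out each library.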

Additional observations from a re-analysis of the deposited data

How the results depend on the processing

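The results rest on 2 libraries a group and on peak lists of unequal length with unknown read totals. With lists of equal length, BMH-21 minus mock peaks at the 10 genes changed sign to 4.5, bases differed by -2560.5 in place of -11944.5, mock-only regions numbered 4 in place of 17, BMH-21-only members 1 in place of 0 and mock-only related genes 2 in place of 7, and the strongest gene-end peaks of the mock libraries had a median place of 32.0% from the top of the list in place of 15.3% (40.0% with equal lists in BMH-21 libraries). The cause was not tested beyond the shorter mock lists. No share over all genes or regions was computed for lists of equal length. Ranked by −log10 q, the place in mock lists was 7.87%. A 500 bp window, or each end on its own, gave 1 BMH-21-only member. A 2.5 kb window gave 0 mock-only members and a difference of 0.5 in members with a gene-end peak, as the wider window takes in other peaks. RefSeq starts also gave 0.5, but for the 7 members with a listed start. Zbtb16, Dmrt1 and Sall4 were left out there, so the genes counted changed as well as the window.

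Leaving out each library gave 17 to 28 mock-only regions (28 without the first mock library), 4 to 8 BMH-21-only regions (8 without the first BMH-21 library), 1 to 3 mock-only members (3 without the second BMH-21 library, adding Gfra1 and Sall4) and 0 to 1 BMH-21-only members (1 without the second mock library). The labels do not say that replicate numbers pair libraries. With the replicate block, differences were -1.5 members, -19.5 peaks and -11944.5 bases, which equal the unpaired differences by arithmetic. Each had an exact sign-flip p of 0.5, the smallest that 2 pairs allow. The calls were not recomputed with this block. The stricter threshold and summit windows left the direction of these totals as it was and the counts of regions and related genes within 1.5 times. The 50% coverage, run for regions alone, gave 20 mock-only and 4 BMH-21-only.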
